A study of Mus musculus with 4 samples.

Results

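The genes of Angiopoietin-Tie signalling examined here were the receptors *Tek* (Tie2) and *Tie1*, the ligands *Angpt1* and *Angpt2*, and *Ptprb* (VE-PTP), the phosphatase that acts on the Tie2 receptor. They were chosen by name and are 5 of the 21762 protein-coding genes of the GENCODE M21 annotation of mm10. All peaks with their summit in a gene record or within 50 kb to either side of it were taken. This gave 45 of the 78912 peaks from GFP- nuclei and 43 of the 65008 peaks from GFP+ nuclei. ATAC-Seq marks accessible DNA, because the Tn5 transposase inserts adapters where chromatin is open. Nuclei came from whole hearts of male NuTRAP/Cdh5-Cre mice on a C57BL/6 background, aged 8 to 12 weeks, and were sorted into GFP+ (endothelial) and GFP- (non-endothelial) fractions. Both fractions came from animals that carry the Cdh5-Cre driver and the NuTRAP reporter. There were 2 libraries of each fraction, made from 100 to 50000 nuclei, but each fraction was deposited as 1 peak list called from both libraries together. GFP follows Cre activity under the *Cdh5* promoter, so it marks endothelial cells and their descendants, while the GFP- fraction is a mixture of all other cells of the heart. Values per library were not used here, so no difference between GFP- and GFP+ nuclei below has a replicate check, no test was made and no p-value is given.

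Tie2 is a receptor tyrosine kinase found mainly on endothelial cells. Angiopoietin-1, made largely by perivascular and other non-endothelial cells, activates it and favours vessel stability, whereas angiopoietin-2, made by endothelial cells themselves, acts as a context-dependent antagonist. Tie1 is a related receptor that forms complexes with Tie2 and modulates its signal, and VE-PTP removes phosphate from Tie2. The *Tek* promoter together with an enhancer in its first intron is widely used to drive transgenes in endothelial cells.

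Peaks were compared by rank. The rank is the percentile of a peak's area (the significance signal that the peak caller summed over its length) within its own list, from 0 for the smallest to 100 for the largest peak. A start peak is one within 250 bp of an annotated transcript start, and a gene's start rank is that of its highest start peak. A peak was shared if at least 1 bp overlapped a peak of the other list. Rank differences are GFP+ minus GFP-, in percentile points. In such bulk nuclei, a lower rank from fewer cells of a type and one from less accessible DNA per cell cannot be told apart.

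The labels of the fractions were read against marker genes. All 7 endothelial markers had a higher start rank in GFP+ nuclei, and 3 of them had a start peak in that list only. All 6 fibroblast markers with a start peak, and all 7 pericyte and smooth muscle markers, had a lower start rank in GFP+ nuclei, and 4 and 3 of these had no GFP+ start peak. In contrast, 6 of 7 cardiomyocyte markers had a start peak in both lists, with a median rank difference of -2.10 (range -11.3 to 8.44), and of 4 blood cell markers 1 had a start peak. The GFP+ list thus held peaks at cardiomyocyte genes at nearly the ranks of the GFP- list, and their part in the results below was not tested.

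The sequences below are the DNA that the results turn on: the 250 bp before starts of *Tek*, *Tie1* and *Ptprb*, whose ranks moved by over 20 points, and 200 bp around the summits of the leading peaks away from starts. They are from GRCm38.p6, the assembly of mm10, written 5′ to 3′ on the strand of the gene, and overlap no annotated exon. Capitals mark matches on either strand to the core letters GGAA of ETS sites and to 7 longer words. The word for ETS factors was CAGGAAGT, which holds that core. The word searched for SOX factors was ACAATGG, and that for forkhead factors was GTAAACA. For GATA factors it was AGATAAG, and for MEF2 it was TAAAAATAG. For AP-1 it was TGANTCA, where N is any base, and for E-box factors it was CAGCTG.
Tek, 250 bp before its start, chr4:94739039-94739288, plus strand: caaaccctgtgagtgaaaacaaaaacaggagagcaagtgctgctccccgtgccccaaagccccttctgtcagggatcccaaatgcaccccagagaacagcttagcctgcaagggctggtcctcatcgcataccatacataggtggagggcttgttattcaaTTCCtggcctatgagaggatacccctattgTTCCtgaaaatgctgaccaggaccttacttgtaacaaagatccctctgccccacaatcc
Tek, intron 1, GFP+ summit 7.38 kb downstream, chr4:94746570-94746769, plus strand: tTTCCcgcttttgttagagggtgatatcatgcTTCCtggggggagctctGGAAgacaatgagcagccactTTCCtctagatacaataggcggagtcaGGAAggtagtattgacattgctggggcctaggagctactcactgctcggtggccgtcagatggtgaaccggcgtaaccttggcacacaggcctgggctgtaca
Tek, intron 1, GFP- summit 13.4 kb downstream, chr4:94752562-94752761, plus strand: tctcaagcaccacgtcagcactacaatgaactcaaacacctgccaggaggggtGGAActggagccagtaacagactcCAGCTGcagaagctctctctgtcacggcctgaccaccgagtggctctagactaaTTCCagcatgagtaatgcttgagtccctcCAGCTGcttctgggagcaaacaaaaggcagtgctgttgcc
Tek, intron 10, GFP+ summit 90.9 kb downstream, chr4:94830094-94830293, plus strand: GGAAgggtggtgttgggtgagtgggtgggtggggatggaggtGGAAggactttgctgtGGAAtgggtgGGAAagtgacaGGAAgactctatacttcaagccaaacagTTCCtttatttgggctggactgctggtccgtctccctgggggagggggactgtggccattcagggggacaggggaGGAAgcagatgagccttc
Tie1, 250 bp before its start, chr4:118490062-118490311, minus strand: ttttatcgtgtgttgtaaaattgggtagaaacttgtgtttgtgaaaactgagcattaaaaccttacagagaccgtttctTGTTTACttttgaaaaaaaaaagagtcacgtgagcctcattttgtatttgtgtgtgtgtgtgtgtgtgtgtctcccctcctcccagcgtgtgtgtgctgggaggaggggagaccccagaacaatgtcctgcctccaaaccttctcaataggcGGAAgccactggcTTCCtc
Tie1, GFP+ summit 10.3 kb upstream, chr4:118500243-118500442, minus strand: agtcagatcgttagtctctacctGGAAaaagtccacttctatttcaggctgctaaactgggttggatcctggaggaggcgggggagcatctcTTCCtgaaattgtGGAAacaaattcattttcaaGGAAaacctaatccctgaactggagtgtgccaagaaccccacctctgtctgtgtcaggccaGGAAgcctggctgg
Angpt1, intron 1, GFP- and GFP+ summit 1.98 kb downstream, chr15:42674895-42675094, minus strand: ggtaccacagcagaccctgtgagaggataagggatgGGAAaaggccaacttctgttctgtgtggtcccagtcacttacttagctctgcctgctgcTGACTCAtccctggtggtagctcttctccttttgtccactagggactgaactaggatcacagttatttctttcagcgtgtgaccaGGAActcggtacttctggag
Angpt2, GFP+ summit 26.6 kb upstream, chr8:18768065-18768264, minus strand: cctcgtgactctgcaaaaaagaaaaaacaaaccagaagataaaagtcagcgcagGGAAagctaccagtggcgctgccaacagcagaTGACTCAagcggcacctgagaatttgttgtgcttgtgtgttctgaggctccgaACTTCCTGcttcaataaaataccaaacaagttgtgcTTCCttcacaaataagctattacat
Ptprb, 250 bp before the Ptprb-201 start, chr10:116301122-116301371, plus strand: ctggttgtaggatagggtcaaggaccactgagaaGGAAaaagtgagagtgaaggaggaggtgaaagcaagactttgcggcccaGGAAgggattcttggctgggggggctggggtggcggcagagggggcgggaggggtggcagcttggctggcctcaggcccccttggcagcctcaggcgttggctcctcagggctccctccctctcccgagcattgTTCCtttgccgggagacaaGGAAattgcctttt
Ptprb, intron 3, GFP+ summit 12.8 kb downstream, chr10:116288180-116288379, plus strand: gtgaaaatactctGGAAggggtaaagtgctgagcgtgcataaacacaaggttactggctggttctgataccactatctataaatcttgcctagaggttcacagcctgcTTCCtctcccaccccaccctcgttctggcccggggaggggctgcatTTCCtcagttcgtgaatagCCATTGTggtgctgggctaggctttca
Ptprb, GFP+ summit 21.3 kb upstream, chr10:116254132-116254331, plus strand: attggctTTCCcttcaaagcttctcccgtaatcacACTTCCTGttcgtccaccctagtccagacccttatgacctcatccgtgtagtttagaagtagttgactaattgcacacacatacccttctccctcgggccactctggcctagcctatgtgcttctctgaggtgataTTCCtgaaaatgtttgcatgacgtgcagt

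All 5 genes had a start peak in both lists, as did 58.7% of all protein-coding genes. *Tie1* and *Ptprb* ranked far higher in GFP+ nuclei, *Tek* and *Angpt2* ranked lower there, and *Angpt1* lay 19.7 points lower, just inside the limit of 20 points used here to count a shift. With only the first base of its gene record as the start, *Angpt1* differed by -25.1 points, beyond that limit. Of the 13607 genes with a start peak in either list, 1.95% ranked over 20 points higher and 7.34% over 20 points lower in GFP+ nuclei, and the median difference was -0.815 (5th to 95th percentile -30.2 to 5.98). Start peaks of most genes ranked high, with a median of 90.5 in GFP- and 89.3 in GFP+ nuclei, and the start ranks of all 5 genes lay below that median in both lists.

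**Figure D1:**
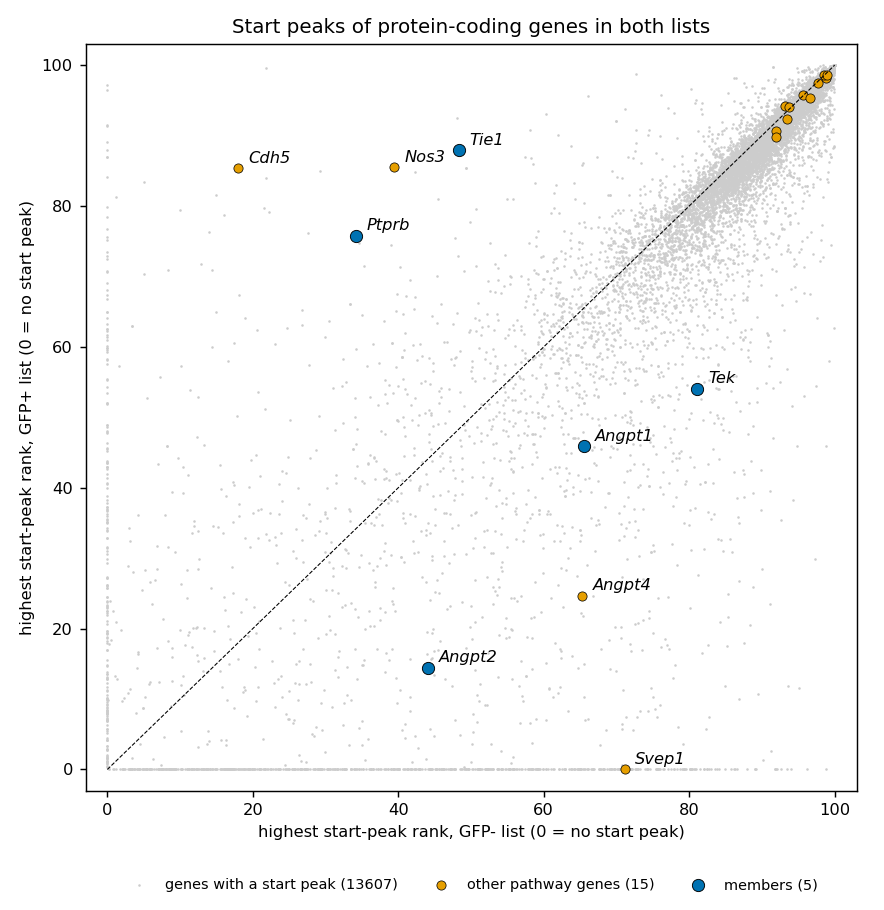
Highest start-peak rank of each protein-coding gene in the GFP- list (x axis, percentile) and the GFP+ list (y axis, percentile), with 0 for no start peak. Grey points are the 13607 genes with a start peak in either list, orange points 15 other genes of the pathway and blue points the 5 members, and the dashed line marks equal ranks. *Tie1* and *Ptprb* lie far above the line beside *Nos3* and *Cdh5*, and *Tek*, *Angpt1* and *Angpt2* lie below it.

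*Tie1* (chr4:118471191-118490061, minus strand) had the highest-ranked GFP+ start of the 5 genes. Its 3 annotated starts shared a peak of 433 bp at rank 48.3 in GFP- nuclei (chr4:118489725-118490157) and of 1563 bp at rank 87.9 in GFP+ nuclei (chr4:118489366-118490928). The difference of 39.6 points lay at percentile 99.2 among all genes with a start peak. The area was 714 in GFP- and 3374 in GFP+ nuclei, a ratio of 4.73, where the median ratio over all 56278 GFP+ peaks with a GFP- partner was 0.844. The summits of the pair lay 12 bp apart.

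No peak of either list lay in the introns or exons of *Tie1* away from its start. Upstream, in contrast, the GFP+ list had 3 peaks and the GFP- list had none. The nearest, whose summit sequence is given above, lay 10.3 kb from the start at rank 66.4 (chr4:118499982-118500692), above 97.6% of the GFP+ peaks without a GFP- overlap. The others lay 27.4 kb upstream at rank 49.9 and 15.7 kb upstream at rank 26.2. The nearest GFP- peak to the first of these was 9824 bp away. The 4 downstream peaks were shared. Those at the starts of the cell cycle gene *Cdc20* (84.1 in GFP- and 81.0 in GFP+) and the fatty acid elongase gene *Elovl1* (93.5 and 89.6) differed by under 5 points. A small peak 24.3 kb downstream of the *Tie1* start ranked 36.6 in GFP- and 6.06 in GFP+ nuclei.

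*Tek* (chr4:94739289-94874976, plus strand) differed from *Tie1* in that its start ranked lower in GFP+ nuclei. One peak held its first 3 starts in each list, with 1385 bp at rank 81.1 in GFP- nuclei (chr4:94738583-94739967, area 2366) and 821 bp at rank 54.1 in GFP+ nuclei (chr4:94738806-94739626, area 777). The difference of -27.0 points lay at percentile 5.65 among all genes. Ranked by the significance of the summit, it was -58.6, and ranked by area per bp it was -33.3, so its direction was the same by each measure. The summits were 430 bp apart, the GFP- one 0.351 kb upstream of the start and the GFP+ one 0.079 kb downstream, against a median of 20 bp over all pairs. The remaining start, of the non-coding transcript Tek-204, lay 65554 bp downstream and had no peak in either list.

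Away from the start, *Tek* had peaks that ranked higher in GFP+ nuclei and others found there only. In the first intron, a GFP+ peak of 1193 bp at rank 84.5 (chr4:94745819-94747011, summit 7.38 kb downstream) overlapped 2 smaller GFP- peaks at ranks 17.5 and 67.5. A second peak of that intron, 13.3 kb downstream, ranked 83.6 in GFP- and 62.9 in GFP+ nuclei. A peak 23.9 kb upstream rose from rank 26.4 and 376 bp to rank 63.0 and 951 bp, a difference at percentile 98.4 among all pairs. Shifts in both directions thus occurred at the same gene.

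The leading GFP+ peak without a GFP- overlap at any of the 5 genes was in intron 10 of *Tek*, 90.9 kb downstream of its start (chr4:94829807-94830453, 647 bp, area 2041). It ranked 79.2 in its list, above 99.8% of all GFP+ peaks without a GFP- overlap, and the nearest GFP- peak was 26250 bp away. The GFP+ list had 2 lower peaks of this kind in *Tek*, in intron 1 at 37.4 kb (rank 12.6) and in intron 7 at 87.7 kb (rank 21.6). The GFP- list had 3 peaks of its own, 13.3 kb upstream (33.2), in intron 3 at 64.2 kb (41.9) and beyond the gene, 161.6 kb from its start (8.07).

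**Figure D2:**
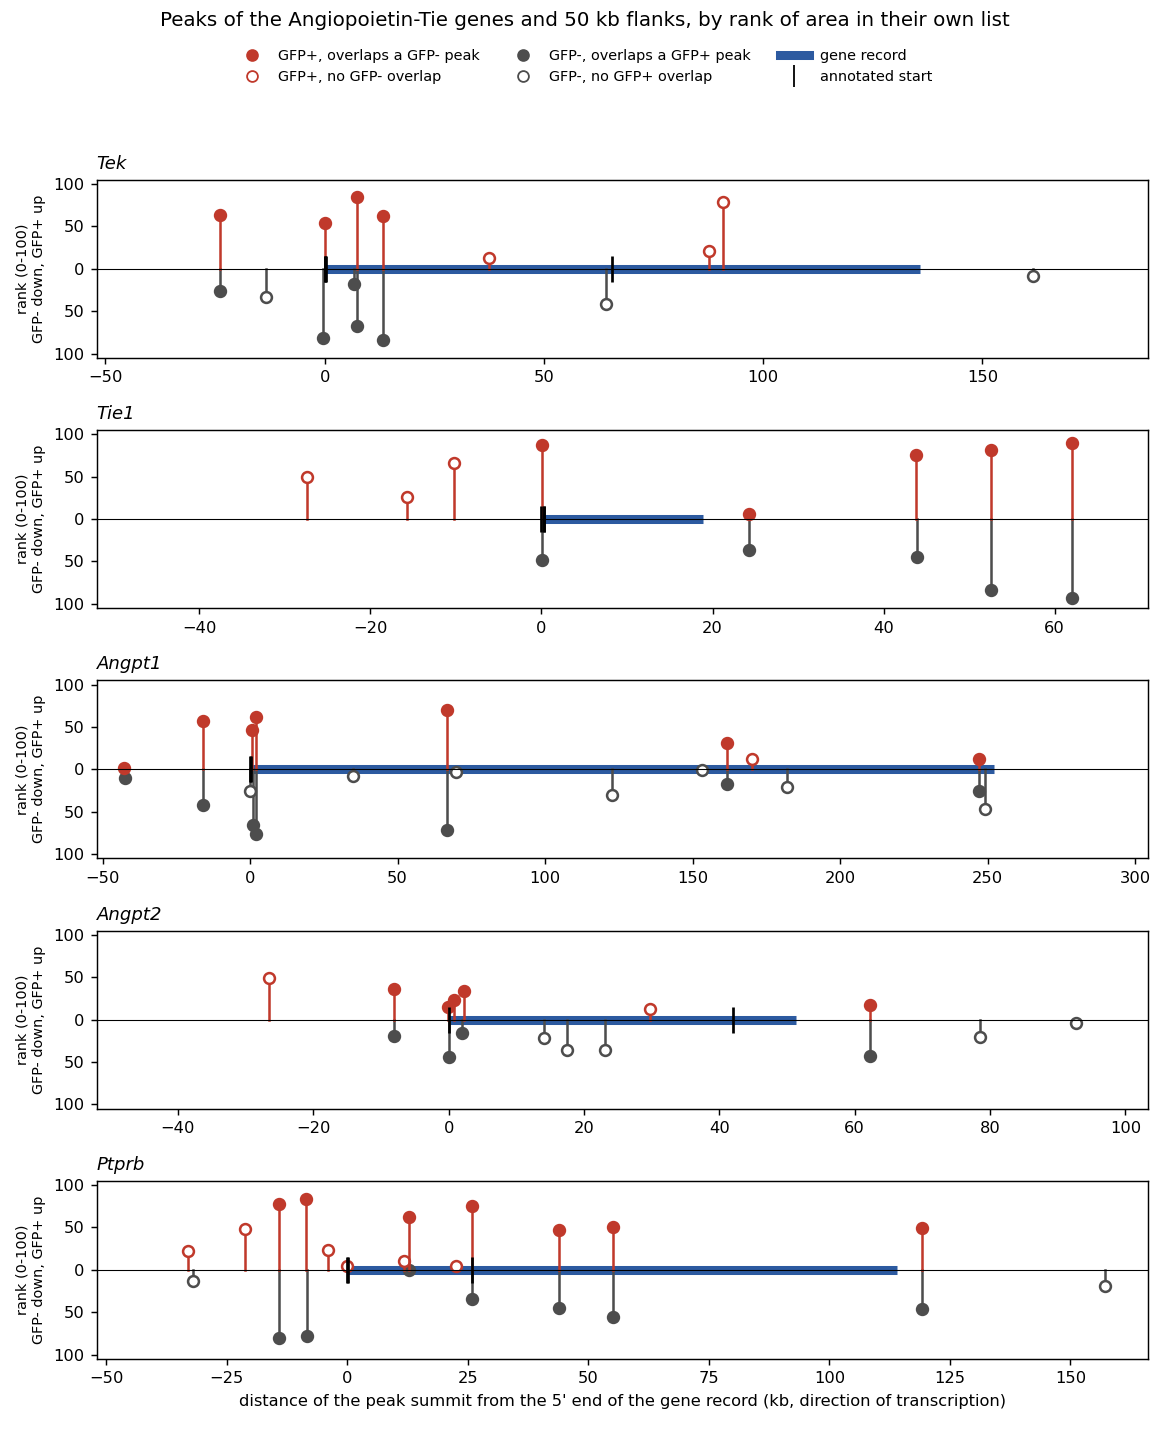
Peaks of the 5 genes and their 50 kb flanks, placed by the distance of the summit from the 5′ end of the gene record (x axis, kb, in the direction of transcription) and by rank (y axis, percentile), GFP+ upward in red and GFP- downward in grey. Filled circles overlap a peak of the other list, open circles do not, the blue bar is the gene record and black ticks are annotated starts. The tall open red peak in *Tek* is the one at 90.9 kb, open red peaks stand upstream of *Tie1* and *Ptprb*, and open grey peaks are spread along *Angpt1*.

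*Angpt1* (chr15:42424723-42676977, minus strand) was more accessible by rank in GFP- nuclei around its start. The start of its coding transcript Angpt1-201 had a peak only in GFP- nuclei, at rank 25.1 (chr15:42676717-42677100), separated by 196 bp from the nearest GFP+ peak. The next peak, within 250 bp of the start of the non-coding Angpt1-202, ranked 65.5 in GFP- nuclei (chr15:42675942-42676525, 584 bp) and 45.9 in GFP+ nuclei (chr15:42675960-42676520, 561 bp). The difference in start rank was -19.7, at percentile 7.46 among all genes. The antisense non-coding gene *Gm17473* overlaps this end of *Angpt1*, so these peaks cannot be assigned to one of the pair.

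Another peak, 1.98 kb into the first intron, had its summit at the same base in both lists and ranked 76.8 in GFP- and 62.2 in GFP+ nuclei. The largest shared peak deeper in the gene, 66.9 kb downstream in intron 1, differed little, at 71.9 and 69.7. The intronic peaks at 161.5 kb (17.3 in GFP- and 30.9 in GFP+) and 247.0 kb (25.8 and 12.7) were small in both. Of 10 GFP- peaks in introns away from the start, 6 had no GFP+ overlap, at ranks from 0.309 to 46.4, the highest in the last part of the gene at 249.0 kb. The GFP+ list had 1 peak of its own, at 170.1 kb (rank 11.8). Upstream, a shared peak at 16.0 kb ranked 42.7 in GFP- and 57.1 in GFP+ nuclei, and 1 at 42.5 kb ranked 10.5 and 1.77. *Angpt1* thus had 7 GFP- peaks without a GFP+ overlap, a number that 5.53% of all protein-coding genes reached. With only peaks in the upper 75% of each list by area, it had 4 of 8. The 4 include the shared peak at 247.0 kb, whose GFP+ partner at rank 12.7 was left out there.

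*Angpt2* (chr8:18690263-18741562, minus strand), which lies inside *Mcph1* on the opposite strand, had the weakest start of the 5 genes in GFP+ nuclei. A GFP- peak of 1354 bp at rank 44.0 (chr8:18740339-18741692, area 636) overlapped 2 GFP+ peaks, of 276 bp at the start (chr8:18741451-18741726, rank 14.4) and of 615 bp just inside the gene (chr8:18740600-18741214, rank 23.3). The difference at the start was -29.6 points, at percentile 5.1 among all genes, but its direction depended on the measure, since ranking by area per bp gave 19.0 and ranking by summit significance gave -12.5. The GFP- peak was long and shallow, at rank 0.897 by area per bp. The start of the non-coding Angpt2-202, 42.0 kb into the gene, had no peak in either list.

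Other peaks of *Angpt2* were of low or middle rank. Shared peaks 2.28 kb into the gene and 8.04 kb upstream ranked higher in GFP+ nuclei, at 15.7 in GFP- and 33.6 in GFP+ and at 19.4 and 35.7, while 1 downstream of the gene, 62.2 kb from the start, ranked 42.6 and 17.2. The GFP+ list alone had a peak 26.6 kb upstream (chr8:18767382-18768250, 869 bp, rank 49.1), above 88.5% of the GFP+ peaks without a GFP- overlap, and a peak in intron 2 at 29.8 kb (rank 12.5). The GFP- list alone had 3 intronic peaks, 14.2 to 23.1 kb downstream at ranks 21.4 to 36.1, and 2 beyond the gene at ranks 20.2 and 4.01. The peaks around *Angpt2* also lie in *Mcph1*, and were assigned to *Angpt2* by position only.

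*Ptprb* (chr10:116275523-116389535, plus strand) had a GFP+ pattern at its second promoter. The start of the coding transcript Ptprb-201, 25.8 kb inside the gene record, had a peak of 495 bp at rank 34.2 in GFP- nuclei (chr10:116301263-116301757, area 492) and of 1158 bp at rank 75.8 in GFP+ nuclei (chr10:116300686-116301843, area 1711). The difference of 41.6 points lay at percentile 99.3 among all genes, and the area ratio was 3.48. At the first starts of the record, which include that of the coding transcript Ptprb-203, only the GFP+ list had a peak, and it was small (chr10:116275344-116275557, 214 bp, rank 3.89).

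In intron 3 of *Ptprb*, 12.8 kb downstream of the first start, a peak that was among the smallest in the GFP- list (rank 0.493) ranked 62.6 in GFP+ nuclei. The difference of 62.1 points was at percentile 99.8 among all pairs and was the largest of the 28 shared GFP+ peaks at the 5 genes. A further 6 GFP+ peaks had no GFP- overlap, the start peak above among them. They lay 33.1, 21.3 and 4.09 kb upstream at ranks 22.0, 47.6 and 23.7, and in introns 11.7 and 22.4 kb downstream at ranks 10.9 and 4.13. Of all protein-coding genes, 1.32% had as many or more. With only peaks in the upper 75% of each list by area, *Ptprb* had 2 GFP+ peaks of 8 without a GFP- overlap. Of the 6, only the peak 21.3 kb upstream was among these. The other was the intron 3 peak, whose GFP- partner at rank 0.493 was left out there. The GFP- list alone had a peak 31.9 kb upstream (13.1) and 1 beyond the gene at 157.1 kb (19.3). The upstream peaks lie in the neighbouring phosphatase gene *Ptprr*, and the shared peaks there, at 14.2 kb (80.4 in GFP- and 77.1 in GFP+) and 8.52 kb (77.9 and 83.0), differed little. Neither did an exonic peak at 43.9 kb (45.1 and 46.4), an intronic peak at 55.2 kb (55.3 and 50.05) or a peak beyond the gene at 119.2 kb (46.7 and 49.7).

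Over the 5 genes, 15 of 43 GFP+ peaks had no GFP- overlap (34.9%, Wilson 95% interval 22.4 to 49.8%), against 13.4% of all GFP+ peaks. In the other direction, 17 of 45 GFP- peaks had no GFP+ overlap (37.8%, 25.1 to 52.4%), against 30.3% of all GFP- peaks, which lies inside the interval. Where 50% of both peaks had to overlap, the shares were 55.8% of the GFP+ peaks of the 5 genes against 26.3% of all GFP+ peaks, and 57.8% against 39.3% in GFP- nuclei. Peaks over 1000 bp from any protein-coding start overlap less often in general, and for them the background was 16.3% in GFP+ and 35.4% in GFP- nuclei. Away from their own starts, 14 of 37 GFP+ peaks (37.8%, 24.1 to 53.9%) and 16 of 39 GFP- peaks (41.0%, 27.1 to 56.6%) of the 5 genes were found in 1 list only. This set is not matched to that background, because it leaves out only peaks within 250 bp of a gene's own starts. It keeps the shared peaks at the starts of *Cdc20* and *Elovl1*. These intervals cover counting error only, and peaks of a gene are not independent.

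**Figure D3:**
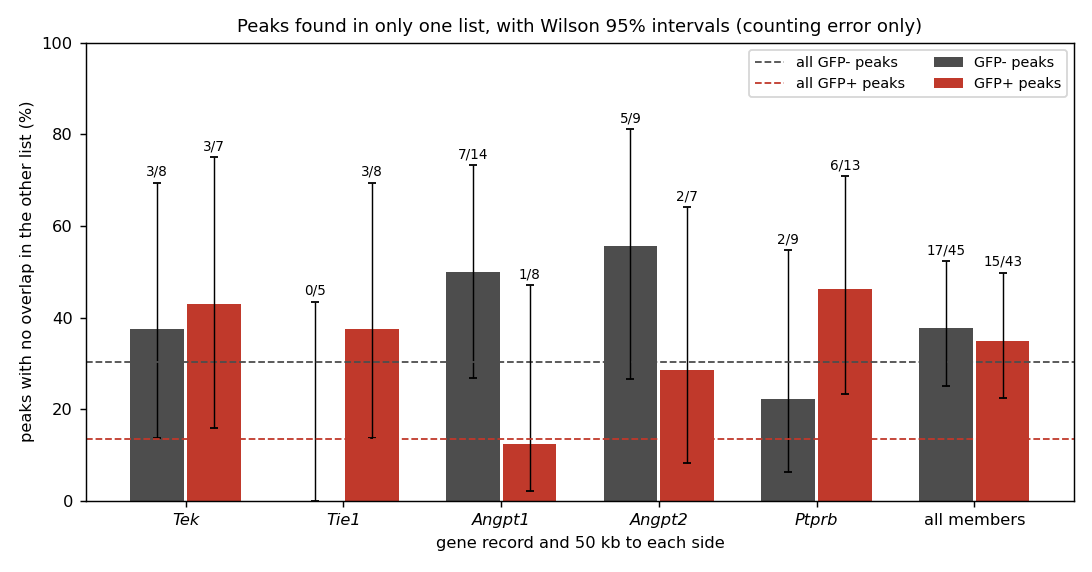
Share of peaks with no overlap in the other list (y axis, percent) for each gene record with 50 kb to each side and for all 5 together, GFP- in grey and GFP+ in red, with counts above the bars. Error bars are Wilson 95% intervals for counting error, and dashed lines give the share over all peaks of each list, 30.3% for GFP- and 13.4% for GFP+. *Tie1* and *Ptprb* have the taller GFP+ bars and *Angpt1* and *Angpt2* the taller GFP- bars. *Tek* has 3 such peaks in each list, and its GFP+ bar is slightly the taller (42.9% against 37.5%).

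The genes differed in which list held the peaks without a partner. *Ptprb* had 6 of 13 GFP+ and 2 of 9 GFP- peaks of this kind, *Tie1* 3 of 8 and 0 of 5, and *Tek* 3 of 7 and 3 of 8, an equal number in each list. *Angpt1* had 1 of 8 GFP+ and 7 of 14 GFP- peaks, and *Angpt2* 2 of 7 and 5 of 9. At least 1 GFP+ peak of this kind lay at 39.7% of all protein-coding genes, and 3 or more, as at *Tek* and *Tie1*, at 8.01%. At least 1 such GFP- peak lay at 61.2% of genes, and as many as at *Angpt2*, *Tek* and *Ptprb* or more at 11.6%, 26.3% and 39.9%. These shares were not adjusted for gene length.

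The 28 shared GFP+ peaks ranked higher than their GFP- partner in 13 cases and lower in 15, with a median difference of -2.68, beside -2.14 for all 56278 pairs, of which 34.2% ranked higher in GFP+ nuclei. The spread was wide, from -30.6 to 62.1, with 5 peaks over 20 points higher and 6 over 20 points lower, where 4.97% and 14.9% of all pairs were. Among the 6 are the *Angpt2* GFP+ peaks at ranks 14.4 and 23.3 (-29.6 and -20.7 points), which overlap the same GFP- peak at rank 44.0. Ranked by area per bp, the *Angpt2* start difference was 19.0. Summits of these pairs lay a median of 34 bp apart.

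**Figure D4:**
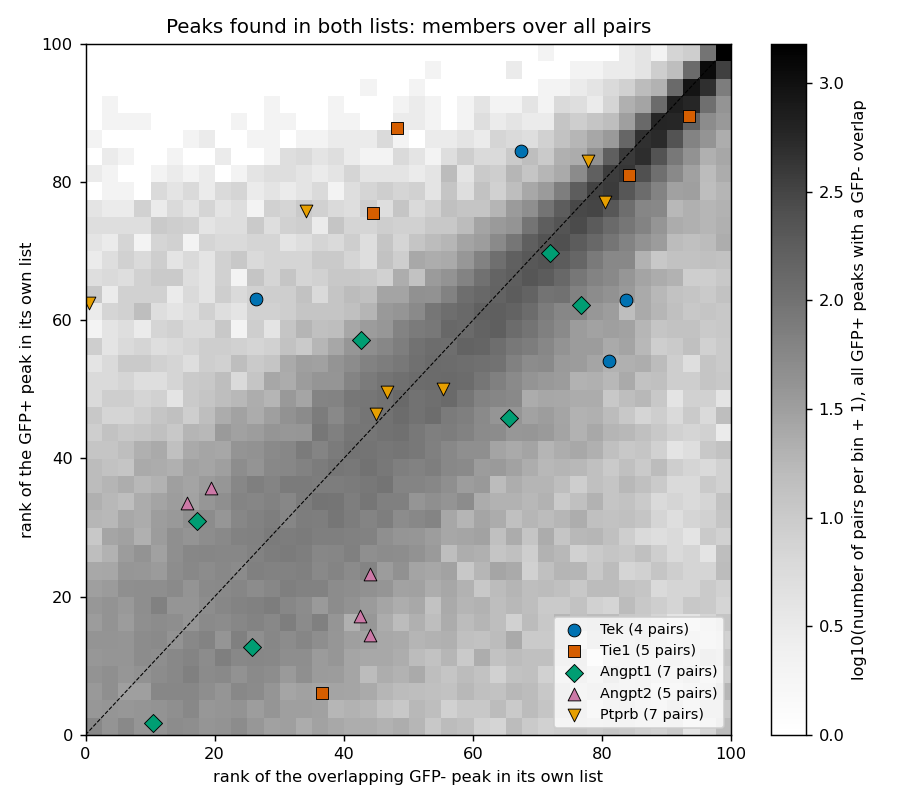
Rank of each shared GFP+ peak of the 5 genes (y axis, percentile) against that of the overlapping GFP- peak (x axis, percentile), over the number of all 56278 pairs per bin in grey on a log10 scale. Peaks of *Tie1*, *Ptprb* and *Tek* stand furthest above the dashed line of equal ranks, up to 62.1 points, and peaks of *Angpt2*, *Tie1* and *Tek* lie over 20 points below it.

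Beyond the 5 genes, 17 other genes of the pathway were examined. Of these, 14 had a start peak in both lists, 1 in the GFP- list only and 2 (*Lect2* and *Grb7*) in neither. The median rank difference of the 15 genes with a start peak was -0.333, beside -0.815 for all genes, with 6 higher and 9 lower in GFP+ nuclei. *Cdh5*, which encodes VE-cadherin, the junction protein that VE-PTP also binds, ranked 18.0 in GFP- and 85.3 in GFP+ nuclei. *Nos3*, the endothelial nitric oxide synthase gene, ranked 39.4 and 85.5. Both were over 20 points higher. The *Cdh5* promoter also drives the Cre that sorted the nuclei. *Angpt4*, another angiopoietin gene, ranked 65.3 in GFP- and 24.7 in GFP+ nuclei, and *Svep1*, whose extracellular matrix protein binds Tie1, had a start peak at rank 71.1 in GFP- nuclei only. The remaining 11, among them *Pik3r1*, *Akt1* and *Foxo1*, which act in the signal below the receptor, ranked between 89.8 and 98.9 in both lists and differed by under 5 points.

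The protein-coding genes with patterns nearest to each member were found by the Euclidean distance over 4 ranks: the start rank and the highest rank in introns and exons away from starts, in each list. For *Tie1* these were *Gm49391* and *Ctla2a*, which share the same values at a distance of 2.73, and *Cd93* at 7.51. The start of *Cd93* ranked 45.5 in GFP- and 80.9 in GFP+ nuclei. *Tie1* and these genes had no peak in introns or exons away from starts, which was set to rank 0, so their distances rest on the start ranks. For *Ptprb* they were *Fam83g* (13.5), *Klhl6* (13.9) and *Igfbp3* (16.1), further away than those of *Tie1*, but all 4 ranks of *Ptprb* were above 0. *Tek* lay nearest to *Tenm3* (4.46), *Cand2* (6.08) and *Lsmem1* (6.59), *Angpt1* to *Clip4* (5.64), *Adgrb1* (6.76) and *Grk3* (6.84), and *Angpt2* to *Nkain4* (9.05), *Spats1* (11.3) and *Pcdhac2* (12.9).

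Sequence words were counted in 200 bp around each summit. The ETS word was found in 2 of the 15 GFP+ peaks without a GFP- overlap, those 26.6 kb upstream of *Angpt2* and 21.3 kb upstream of *Ptprb*, and in 3.18% of all GFP+ peaks and 5.92% of all GFP+ peaks without a GFP- overlap. It was in 0 of the 45 GFP- peaks of the 5 genes, where 2.89% of all GFP- peaks held it. The SOX word was in 1 of the 15, in 2.82% of all GFP+ peaks and in 5.86% of all GFP+ peaks without a GFP- overlap. The shared *Ptprb* intron 3 peak above, which is not one of the 15, also held it. The AP-1 word was in 3 of the 15 and in 8.68% of all GFP+ peaks without a GFP- overlap. This word, in the *Angpt2* peak 26.6 kb upstream and in the *Angpt1* peak at 1.98 kb, was in 7.71% of all GFP+ and 9.99% of all GFP- peaks. The E-box word, found at 2 places in the *Tek* GFP- peak at 13.4 kb, was in 11 of 45 GFP- peaks of the 5 genes (24.4%) and in 22.0% of all GFP- peaks. In GFP+ nuclei it was in 5 of 43 (11.6%) and in 18.4% of all peaks. No MEF2 word was in the 15 GFP+ peaks, against 1.75% of all GFP+ peaks, and forkhead and GATA words were in 1 each, against 2.68% and 3.26%. Among all GFP+ peaks without a GFP- overlap, the shares for MEF2, forkhead and GATA were 1.18%, 3.77% and 3.86%. A match describes the letters only and does not show that a factor is bound.

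The shorter ETS core GGAA, added after the longer words had been counted, was counted in the same windows. The *Tek* peak at 90.9 kb held 7 cores, a number that 1.93% of all GFP+ peaks reached, and the *Tek* peak at 7.38 kb and the *Tie1* peak at 10.3 kb upstream held 5 each, which 12.0% reached. The highest count at the 5 genes was 8, in the small GFP+ start peak of *Ptprb* at rank 3.89, which 0.67% reached. The highest among their GFP- peaks was 6, which 4.6% of all GFP- peaks reached. It was found at the *Tie1* start, 247.0 kb into *Angpt1* and 92.8 kb from the *Angpt2* start. Of the 43 GFP+ peaks of the 5 genes, 19 (44.2%) held 4 or more cores, against 24.9% of all GFP+ peaks. Among those without a GFP- overlap it was 6 of 15 (40%), against 38.8% of all such peaks, and among the shared ones 13 of 28 (46.4%), against 22.8%. Of the 45 GFP- peaks, 13 (28.9%) did, against 24.4% of all GFP- peaks. Among the shared GFP- peaks it was 10 of 28 (35.7%), against 22.6%, and among those without a GFP+ overlap 3 of 17 (17.6%), against 28.7%. The higher share at shared peaks was thus seen in both lists, whose windows there cover much of the same DNA. Before the starts, the forkhead word stood 80 bases into the 250 bp before *Tie1*, and was in 2.69% of such windows of all protein-coding genes, while the windows printed for *Tek* and *Ptprb* held none of the 7 longer words.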

How the data were processed

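ATAC-Seq libraries of GFP+ and GFP- heart nuclei (2 each) were grouped by their labels. The authors used fastp for trimming, bowtie2 for mapping to mm10 (version 2.3.5.1 per the submitters' processing notes), samtools for filtering and Picard against duplicates. After downsampling to a common depth, Genrich was run in its ATAC-Seq setting without blacklisted regions. They deposited 1 list per fraction, called from both libraries. Per deposited peak, the signal is its area, the score is area per bp times 1000, limited to 1000 (83.9% of the GFP- list and 82.0% of the GFP+ list stood at that limit), and the −log10 p is that of the summit, all as the authors' caller gave them. The smallest area was 200.01 in GFP- and 200.013 in GFP+ nuclei. Counts per library were not used here, so the depth behind each peak is not known, and downsampling does not equalise how strongly reads gather in peaks. Each list therefore has its own ranks.

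Overlaps, ranks and distances (shared meaning an overlap of at least 1 bp) were computed with Python 3.11.15, numpy 2.4.6 and pandas 2.3.3, after the steps were tested on 1500 simulated peaks and 500 starts with 0 mismatches. Starts were all GENCODE M21 transcript starts. The text names, for each gene, its start peaks, the 3 highest-ranked peaks elsewhere in each list (except 1 peak pair at *Tie1*), and the 3 highest-ranked unshared peaks, with the others beside them; pathway genes that differed by over 20 points; and the 3 nearest genes. Summit windows were counted on the chromosomes of GRCm38.p6, 64960 GFP+ and 78862 GFP- peaks. The members and lists were chosen with earlier results of these data known. Alternatives changed the start definition and window, the ranking measure, the overlap, the peak threshold and the flanks. That pair and 1 sequence are not reported here.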

Additional observations from a re-analysis of the deposited data

How the results depend on the processing

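Each fraction had a single peak list, so counting error is the only error that could be given and the depth of the libraries limits which small peaks were called at all. Of 42 alternative values for the start peaks, the rank differences and the unshared shares, 37 kept their direction within 20 points or their counting interval. Of the 5 genes, 4 had a GFP+ start peak with coding starts only, with a 0 bp window or with peaks in the upper 75% by area. With only the first base of each gene record as the start, 4 had a start peak in each list. Ranked by area per bp, the *Angpt2* start difference reversed, to 19.0, and the GFP- peak there was much longer than the GFP+ peak. Ranked by summit −log10 p, *Tek* moved to -58.6, and with only the first base of each gene record as its start, which leaves out the Ptprb-201 start, *Ptprb* moved to 3.89. *Angpt1* was -25.1 with that start and -38.3 by area per bp, both beyond 20 points, and -17.9 by summit −log10 p. Where 50% of both peaks had to overlap, 55.8% of GFP+ and 57.8% of GFP- peaks of the 5 genes were unshared, against 26.3% and 39.3% of all peaks under the same rule. Of 60 alternative counts per gene, 46 stayed within 1.5 times and 14 moved. With only peaks in the upper 75% by area, the unshared GFP+ peaks went from 3 to 1 at *Tek*, from 6 to 2 at *Ptprb* and from 2 to 3 at *Angpt2*, and the unshared GFP- peaks from 7 to 4 at *Angpt1*, from 2 to 0 at *Ptprb* and from 0 to 1 at *Tie1*. At *Tek* they were then 1 of 5 in GFP+ and 2 of 6 in GFP- nuclei. Over the 5 genes the shares under this setting were 35.7% of GFP+ and 37.9% of GFP- peaks, against 12.7% and 29.5% of all peaks. Overlap was judged there between the shortened lists, so a shared peak whose partner fell below the cut was counted as unshared. The rises at *Angpt2* and *Tie1* came from such peaks, and the shares over the 5 genes include them. No paired analysis was possible because the replicates of each fraction were deposited as 1 pooled list. Leaving out a library was not possible for the same reason.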
